A study of Sus scrofa with 6 samples.

Results

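ADAMDEC1 is a secreted member of the ADAM family of metalloproteases. It was followed here together with the ADAM and ADAMTS genes that the GeneChip Porcine Genome Array measures. The members were chosen by gene symbol, namely ADAMDEC1, every symbol of ADAM followed by a digit and every symbol that starts with ADAMTS. This gave 10 of 6765 named genes, measured by 17 probe sets of 23999. A probe set is a group of short oligonucleotides on the array whose signals are combined into 1 value. ADAMDEC1 was picked because of its difference between the culture types, so its levels are described without a test. The 6 ADAM and 3 ADAMTS genes were picked by name and were tested.

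The samples were 6 arrays of IPEC-1 cells, a non-transformed epithelial line from the small intestine of newborn piglets. ALI cultures (air-liquid interface, 3 arrays) carried only a thin film of liquid on the apical side, and SMC cultures (submerged membrane culture, 3 arrays) carried a column of medium. Both were grown on porous membranes in the same medium with insulin, transferrin, selenium and epidermal growth factor, and were kept without serum for the last weeks. The arrays of each culture type stand for passages P109, P111 and P113 of 1 cell line, so that a p-value measures the spread between these cultures only. The free-text description of the samples names liver, unlike the other labels, and was not used. The epithelial genes KRT8, EPCAM and CDH1 had mean log2 values of 13.66, 13.39 and 12.77 in ALI and 13.54, 13.32 and 12.87 in SMC cells, and 12 of 13 measured epithelial markers were above the lowest 25% of the values on all 6 arrays. So were 8 of 12 measured fibroblast markers and 9 of 16 measured markers of macrophages and dendritic cells. By definition, only 25% of all probe sets lie below this bound on each array. These counts alone therefore do not show that a cell type is present.

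ADAM proteases are membrane proteins with a metalloprotease and a disintegrin domain. Several of them act as sheddases, which cut growth factors, cytokine precursors, Notch receptors and adhesion proteins from the cell surface. The ADAMTS proteases are secreted, carry thrombospondin repeats and cut matrix proteins such as versican and aggrecan. ADAMDEC1 lacks most of the C-terminal domains of its relatives and has an unusual zinc-binding site. In the human gut it is known from macrophages, dendritic cells and fibroblasts of the lamina propria.

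ADAMDEC1 lay far higher in ALI cultures than in SMC cultures. Its only probe set had log2 values of 6.94, 6.75 and 8.41 on the ALI arrays of passages P109, P111 and P113, against 4.95, 4.33 and 4.63 on the SMC arrays of the same passages. The groups did not overlap, and the lowest ALI array lay 1.80 log2 units above the highest SMC array. ALI cells averaged 7.37 ± 0.91 and SMC cells 4.63 ± 0.31 (SD over 3 arrays each), a difference of 2.73 log2 units or 6.64-fold. Among all genes the difference ranked 4 from the top, which is how the gene came to be chosen. On SMC replicate 2 the signal was in the lowest 25% of the array, whose bound was 4.52 there, and the signals of SMC replicates 1 and 3 were close above their bounds of 4.56 and 4.52. A signal in this range is not shown to be above background, so the fold is no exact size. In bulk RNA of this kind, more cells that express a gene and more RNA per cell cannot be told apart.

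**Figure D1:**
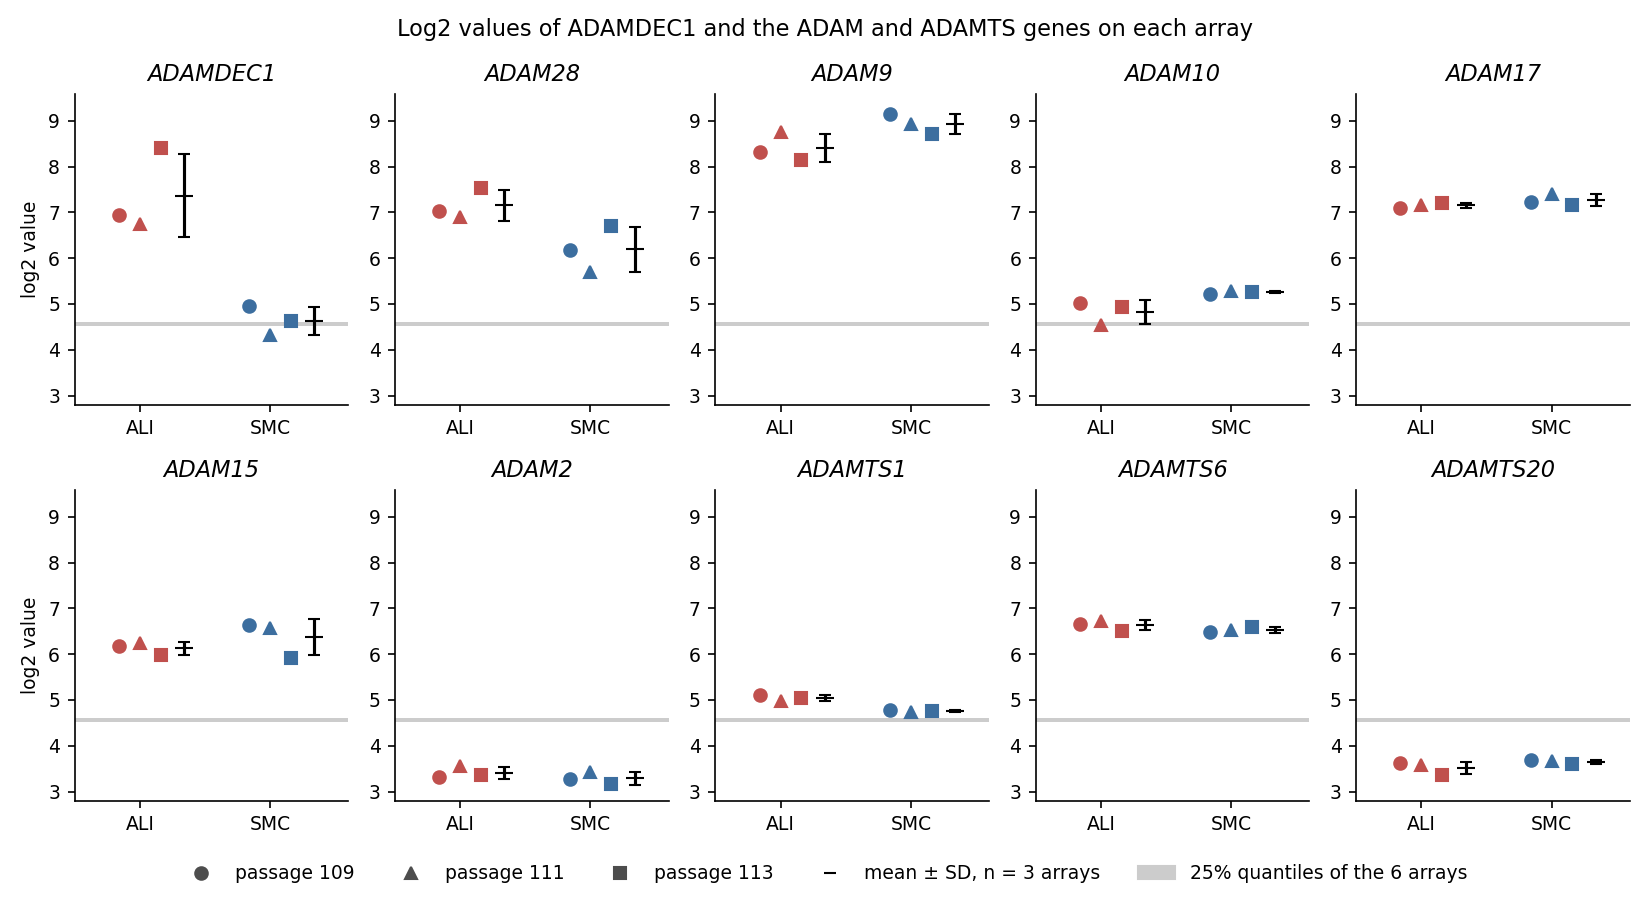
Log2 values of the 10 genes (y axis) on the ALI and SMC arrays (x axis), 1 probe set per gene. Symbols mark the passage, black bars the mean ± SD of 3 arrays, and the grey band the 25% quantiles of the 6 arrays (4.52 to 4.61). ADAMDEC1, ADAM28 and, by a small difference, ADAMTS1 are higher in ALI cells without overlap, ADAM10 lies lower, and ADAM2 and ADAMTS20 stay under the band.

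The ADAMDEC1 level differed among the ALI cultures. ALI replicate 3 (passage P113) was 1.57 log2 units above the mean of ALI replicates 1 and 2. The SD of 0.91 over the ALI arrays was larger than that of 99.7% of all probe sets, and the SD of 0.31 over the SMC arrays was larger than that of 91.2%. These SDs are not set against each other, as the SMC values lie at or close to the bound of the lowest 25%. Within the passages, ALI exceeded SMC by 1.99 log2 units at passage P109, by 2.42 at passage P111 and by 3.78 at passage P113. All of these differences have the same direction, but none is an exact size, since the SMC value was below the bound at P111 and close above it at P109 and P113. At P113 the ALI array was the highest of its group, while the SMC array held the middle value. As each passage has 1 array of each culture type, a change of the difference with passage could not be tested. Without ALI replicate 3 the difference of the means was 2.21 log2 units, and leaving out any other single array gave 2.58 to 3.04.

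ADAM28 is the gene next to ADAMDEC1 in the reference annotation of the pig (Sscrofa11.1), with ADAM7 on the other side of ADAMDEC1. ADAM28 encodes a metalloprotease that is membrane-bound or secreted, known from human lymphocytes as a ligand of an integrin. Its log2 values were 7.04, 6.89 and 7.53 in ALI cells at passages P109, P111 and P113, against 6.18, 5.70 and 6.70 in SMC cells. Every ALI array lay above every SMC array, though the gap between the groups was only 0.20 log2 units. ALI cells averaged 7.15 ± 0.33 and SMC cells 6.19 ± 0.50 (SD, n = 3 arrays each). The difference of 0.96 log2 units (1.95-fold; 95% interval 0.37 to 1.55) did not pass limma's test over all probe sets (adjusted p = 0.125). With the passage as a block it passed (adjusted p = 0.00377, 95% interval 0.69 to 1.23). Within the passages the difference was 0.87, 1.19 and 0.83 log2 units, and SMC cells at passage P113 came close to the ALI level of passage P111. With the block, the call of ADAM28 also held without passage P109, P111 or P113 (adjusted p = 0.00781, 0.021 and 0.00687).

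In both culture types ADAM28 had its highest value at passage P113 and its lowest at passage P111. ADAMDEC1 shared this order in ALI cells. In SMC cells its highest value was at passage P109, but these values lay at or close to the bound of the lowest 25%, so their order is not sure. Among 11 genes around ADAMDEC1 in the annotation, chosen by position after the values had been seen, 5 including ADAMDEC1 and ADAM28 had a probe set. The other 3 did not pass the test. The values of STC1 and NEFL were in the lowest 25% on all 6 arrays. STC1, which encodes the glycoprotein stanniocalcin, had a difference of 0.23 log2 units (adjusted p = 0.517), SLC25A37, a mitochondrial iron importer, one of 0.27 (adjusted p = 0.309), and NEFL, a neurofilament chain, one of -0.12 (adjusted p = 0.745). ADAM7 was not analysed here.

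Of the 16 ADAM and ADAMTS probe sets other than ADAMDEC1, none passed limma's test at an adjusted p under 0.05 without the block, where 1.9% of all 23999 probe sets passed. At an unadjusted p under 0.05 there were 6 of the 16, against 14.3% of all probe sets, and the methods' t-test after adjustment called 0 of the 16 and 0% of all probe sets. The 6 probe sets with an unadjusted p under 0.05 read only 4 of the 9 genes, since 3 of them belong to ADAM9. They are therefore not independent, and whether their share exceeds that of all probe sets was not tested. With the passage as a block, 3 of the 16 passed, against 5.32% of all probe sets. These were the probe set of ADAM28, which was higher in ALI cells (2% of all were), and 2 probe sets of ADAM9, which were lower (3.32% of all were) and read the same gene. The ALI arrays lay above the SMC arrays without overlap for 2 of the 16, ADAM28 and ADAMTS1, against 10.3% of all probe sets. They lay below without overlap for 1, ADAM10, against 9.27% of all. Of the 9 genes, 4 had a positive and 5 a negative difference, with a median of -0.11 log2 units against 0.01 for all genes.

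**Figure D2:**
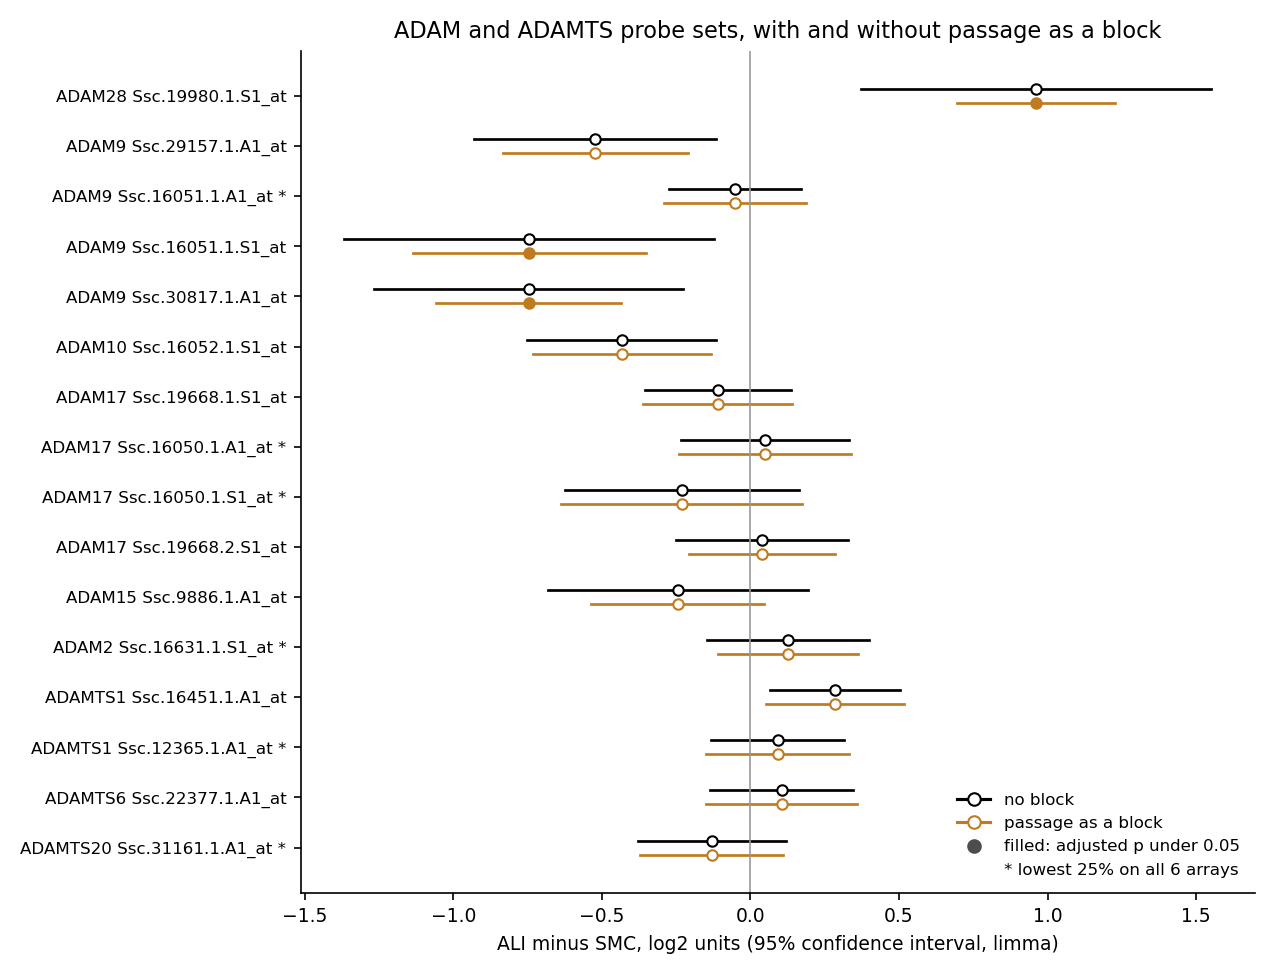
Difference ALI minus SMC in log2 units (x axis) with its 95% interval for the 16 ADAM and ADAMTS probe sets (y axis), from limma without and with the passage as a block. Filled points had an adjusted p under 0.05. ADAM28 at 0.96 is the highest, and 3 probe sets of ADAM9 at -0.52 to -0.75 are the lowest.

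ADAM9, a widely expressed sheddase of growth factors, had 4 probe sets, and 3 of them had lower means in ALI than in SMC cultures by more than 0.5 log2 units. The one that stands for the gene had log2 values of 8.33, 8.75 and 8.15 in ALI cells at passages P109, P111 and P113, against 9.14, 8.94 and 8.71 in SMC cells. Only ALI replicate 2 overlapped with the SMC arrays. Its difference was -0.52 log2 units (95% interval -0.93 to -0.12, adjusted p = 0.224 from limma, 0.071 with the block).

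The second probe set of ADAM9 had 7.21, 7.70 and 7.09 in ALI cells, against 8.32, 8.30 and 7.62 in SMC cells. This is a difference of -0.75 log2 units (95% interval -1.27 to -0.23, adjusted p = 0.171). With the block it passed limma's test (adjusted p = 0.0191). The third probe set had 6.51, 7.28 and 6.34 in ALI cells, against 7.77, 7.59 and 7.01 in SMC cells. Its difference was -0.74 log2 units (95% interval -1.37 to -0.12, adjusted p = 0.257), and it passed with the block (adjusted p = 0.0462).

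In these 3 probe sets the ALI array was below the SMC array at all 3 passages, with differences of -0.19 to -1.25 log2 units. The block calls did not hold in every subset of the passages. The second probe set had an adjusted p of 0.0928 without passage P109 and of 0.0613 without passage P111, and the third one of 0.18 without passage P109 and of 0.0829 without passage P113. The last probe set of ADAM9 lay in the lowest 25% on all 6 arrays and had a difference of -0.05 log2 units. The mean over all probe sets of ADAM9 gave -0.52 (adjusted p = 0.236).

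ADAM10 and ADAM17 are the main sheddases of epithelial cells, ADAM10 for Notch and E-cadherin and ADAM17 for tumor necrosis factor and ligands of the epidermal growth factor receptor. ADAM10 had log2 values of 5.03, 4.54 and 4.92 in ALI cells at passages P109, P111 and P113, against 5.23, 5.29 and 5.27 in SMC cells. All ALI arrays were below the SMC arrays, which had an SD of only 0.03 log2 units, and ALI replicate 2 was in the lowest 25% of its array. The difference of -0.43 log2 units (95% interval -0.75 to -0.11) did not pass limma's test (adjusted p = 0.194, and 0.109 with the block).

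ADAM17 had similar means in both culture types. The probe set that stands for the gene had 7.11, 7.16 and 7.21 in ALI cells, against 7.22, 7.41 and 7.17 in SMC cells. The groups overlapped, and the difference was -0.11 log2 units (95% interval -0.36 to 0.14, adjusted p = 0.703). The other 3 probe sets of ADAM17 had differences of 0.05, -0.23 and 0.04, and those with 0.05 and -0.23 lay in the lowest 25% on all 6 arrays.

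**Figure D3:**
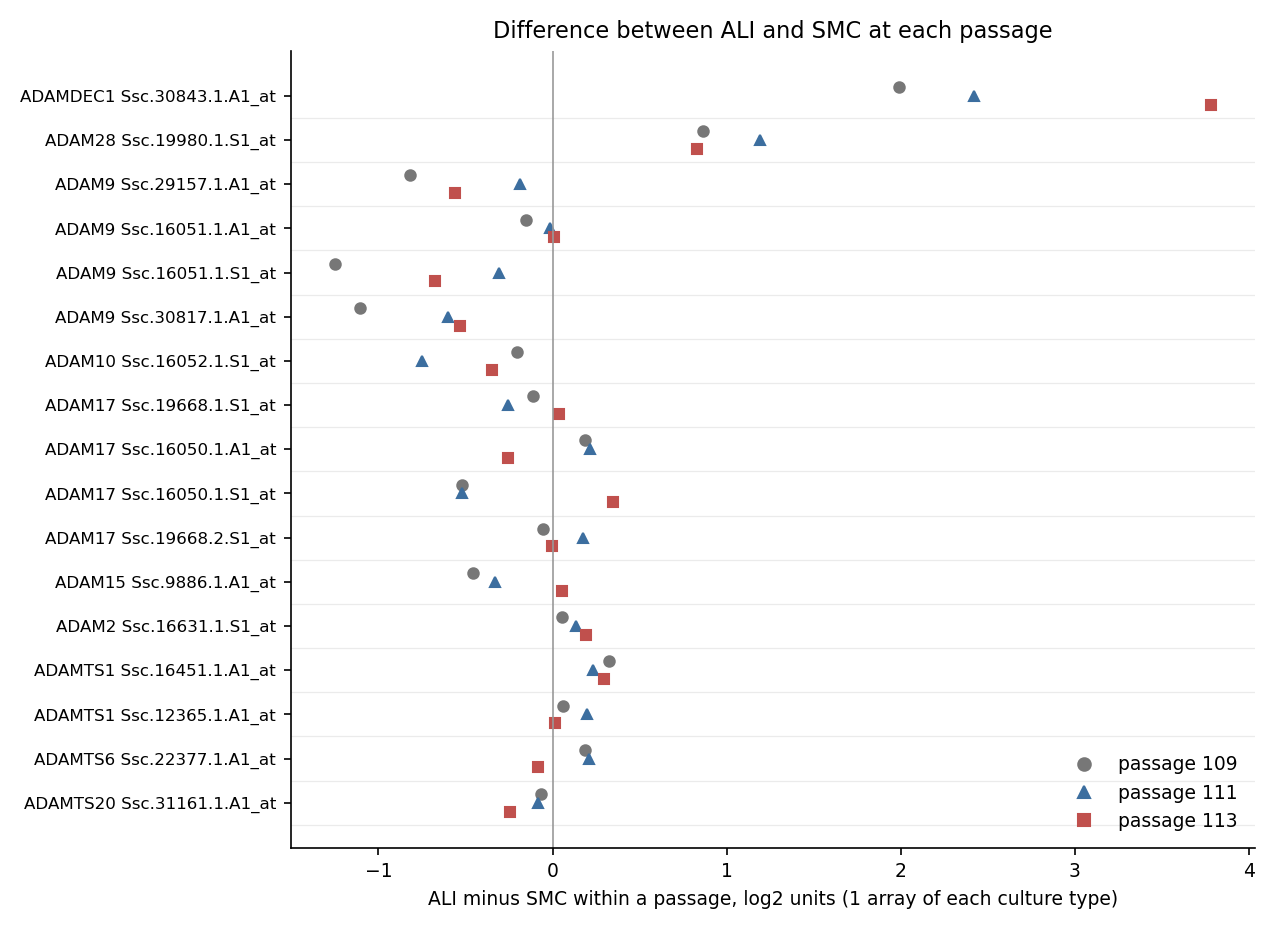
Difference ALI minus SMC in log2 units within each passage (x axis) for the 17 probe sets (y axis), from 1 array of each culture type. ADAMDEC1 reaches 1.99, 2.42 and 3.78 and ADAM28 lies between 0.83 and 1.19, while ADAM17 and ADAM15 lie on both sides of 0.

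ADAM15, a membrane protease of epithelial and endothelial cells, had log2 values of 6.17, 6.25 and 5.98 in ALI cells, against 6.63, 6.58 and 5.92 in SMC cells. SMC replicate 3 was the lowest of all 6 arrays, so that the groups overlapped, and the difference was -0.24 (95% interval -0.68 to 0.19, adjusted p = 0.622). ADAM2, the fertilin subunit of sperm, had 3.32, 3.56 and 3.35 in ALI and 3.27, 3.43 and 3.16 in SMC cells. As all these values are in the lowest 25% of the arrays, ADAM2 is not shown to be expressed in either culture.

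Among the ADAMTS genes, ADAMTS1, a protease of versican and aggrecan, had log2 values of 5.11, 4.98 and 5.05 in ALI cells, against 4.78, 4.74 and 4.75 in SMC cells. Both groups were narrow and did not overlap. The difference of 0.28 log2 units (95% interval 0.07 to 0.50) did not pass limma's test (adjusted p = 0.217, and 0.171 with the block), and the gene's other probe set, in the lowest 25% on all 6 arrays, gave 0.09. ADAMTS6 had 6.66, 6.73 and 6.51 in ALI cells, against 6.48, 6.52 and 6.59 in SMC cells, a difference of 0.11 (95% interval -0.13 to 0.34, adjusted p = 0.711). ADAMTS20, known from the pigment pattern of mice, had 3.62, 3.57 and 3.36 in ALI and 3.68, 3.66 and 3.60 in SMC cells, all in the lowest 25% of the arrays.

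The passages themselves were compared as well, since this contrast was not used to choose the genes. Passage P113 minus passage P109 was estimated over both culture types with limma, from 1 ALI and 1 SMC array of each passage. Passage cannot be told apart here from anything else that differed between the cultures of these passages. None of the 17 probe sets passed, where 0.342% of all probe sets did, and 3 of the 17 had an unadjusted p under 0.05, against 15.9% of all. ADAM28 had a difference of 0.50 log2 units (95% interval 0.18 to 0.83, adjusted p = 0.159). ADAM15 had a difference of -0.45 (adjusted p = 0.221), and ADAM9 had one of -0.41 by its second probe set (adjusted p = 0.283). ADAMDEC1 had one of 0.58 with a wide interval of -0.23 to 1.39 (adjusted p = 0.471), and its SMC arrays did not follow the order of its ALI arrays.

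The genes with the profile most like that of ADAMDEC1 were C1H14orf37, FAM84A, FAM213A, BLNK and EMB. Likeness was measured as the root mean square distance over the 6 arrays, after each profile was centred on its own mean, among 6764 genes. The distances were 0.38, 0.43, 0.48, 0.52 and 0.56 log2 units, and ADAM28 took rank 32 with 0.98. C1H14orf37 had log2 values of 7.26, 6.23 and 8.41 in ALI cells at passages P109, P111 and P113, against 4.10, 4.19 and 4.50 in SMC cells. As in ADAMDEC1, its ALI array of passage P113 was the highest and that of passage P111 the lowest. FAM84A, FAM213A and BLNK, an adaptor of B cell receptor signaling, shared this order of the ALI arrays. EMB, which encodes the glycoprotein embigin, had 6.18, 5.77 and 6.15 in ALI cells, so that passage P109 was slightly above passage P113. The SMC values of C1H14orf37 and EMB all lay in the lowest 25% of the arrays, and those of BLNK did at passages P109 and P111. The differences of these genes are therefore no exact sizes. A distance over 6 arrays is a description, and a wide difference between ALI and SMC in ADAMDEC1 by itself selects genes with a wide difference.

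**Figure D4:**
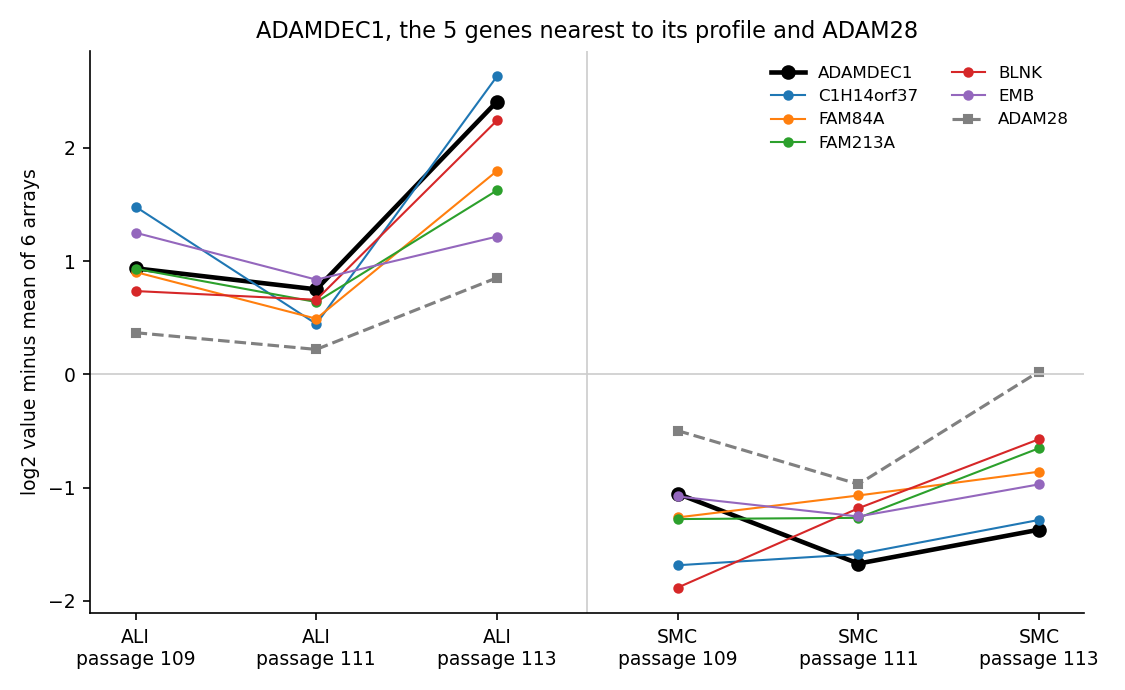
Log2 value minus the mean of the 6 arrays (y axis) for ADAMDEC1, the 5 genes nearest to its profile and ADAM28 on each array (x axis). The ALI array of passage P113 is the highest for ADAMDEC1, C1H14orf37, FAM84A, FAM213A, BLNK and ADAM28, and EMB has its highest value on the ALI array of passage P109.

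ADAM proteases are held in check by tissue inhibitors of metalloproteases (TIMPs) and other inhibitors and matured by furin-like proteases, tetraspanins and inactive rhomboids. Of 22 such genes listed, 13 were measured, and none of these passed limma's test. Among all genes, 1.02% were called higher and 1.51% lower in ALI cells, or 2.25% and 3.75% with the block, which called none of the 13 either. TIMP3, the inhibitor with the widest reach over ADAM and ADAMTS proteases, had a mean log2 value of 7.19 in ALI and 6.87 in SMC cells (difference 0.32, 95% interval 0.07 to 0.57, adjusted p = 0.227). PACSIN3, which binds ADAM proteases from inside the cell, had 6.78 in ALI and 6.45 in SMC cells (adjusted p = 0.247). TIMP1 had a difference of 0.0029 (95% interval -0.28 to 0.29). The list had a median of 0.05 log2 units, against 0.01 for all genes.

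Of 27 measured membrane proteins that ADAM proteases shed, 1 passed the test, with a higher level in ALI cells, and the median was 0.02 log2 units. Among all genes, 1.02% were called higher, or 2.25% with the block. JAG1, a ligand of Notch receptors, averaged 10.75 in ALI and 10.11 in SMC cells, a difference of 0.65 log2 units (standard error 0.12, adjusted p = 0.0448 from limma). This call was lost without any single array other than SMC replicate 3 (adjusted p = 0.0567 to 0.198). With the block, VCAM1, an adhesion receptor for leukocytes, and FAS, a death receptor, passed as well (adjusted p = 0.0302 and 0.0307), but their signals were mostly or wholly in the lowest 25% of the arrays, and without any 1 passage neither passed (0.0635 to 0.183 for VCAM1 and 0.0845 to 0.127 for FAS). CDH1, E-cadherin, had a difference of -0.10, HBEGF, a growth factor released by shedding, one of -0.32 and TGFA, a growth factor of the same family, one of 0.39 (adjusted p = 0.733, 0.716 and 0.164).

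Of 17 measured matrix and plasma proteins cut by ADAMTS proteases, none passed the test (median 0.03). FN1, fibronectin, had a difference of -0.44 log2 units (adjusted p = 0.164) and COL2A1, a cartilage collagen, one of 0.27 (adjusted p = 0.419). The paper names the collagen chains COL5A2 and COL3A1 among the genes most strongly raised in ALI cultures. The probe sets that stand for them here had differences of only 0.09 and 0.13 log2 units (adjusted p = 0.780 and 0.649 from limma). Other probe sets of these genes are not given here and may differ. None of 11 measured metalloproteases of the related matrix metalloprotease, astacin and pappalysin families passed either (median 0.10). PAPPA, a protease of insulin-like growth factor binding proteins, had 0.50 and MMP9, a gelatinase, had 0.32 (adjusted p = 0.162 and 0.196), and PAPPA passed without ALI replicate 3 (adjusted p = 0.0462). MMP7 had a difference of 0.03 (95% interval -0.31 to 0.38).

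Of 7 measured integrin chains, some of which bind disintegrin domains, none passed the test without the block, and 1 did with it, being lower. With the block, 3.75% of all genes were called lower. ITGA2, a chain of a collagen receptor, averaged 6.37 in ALI and 7.22 in SMC cells, a difference of -0.85 log2 units (95% interval -1.64 to -0.07, adjusted p = 0.308, 0.0357 with the block). With the block, its adjusted p was 0.105 without passage P109 and 0.0962 without passage P111. ITGB5, a chain of vitronectin receptors, had a difference of -0.49 (adjusted p = 0.186). The median of the 7 chains was -0.38.

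Macrophages and dendritic cells, the cells known for ADAMDEC1, were looked for by 16 measured markers. Of these, 1 passed the test, with a lower level in ALI cells, and the median was -0.01. Among all genes, 1.51% were called lower. AIF1, a calcium-binding protein of macrophages, averaged 10.50 in ALI and 11.14 in SMC cells, a difference of -0.64 (adjusted p = 0.0248, lost without any single array other than ALI replicate 3). PTPRC, the common leukocyte antigen, the complement chain C1QC and CD80 were in the lowest 25% on all 6 arrays, and CD163, ITGAM and TYROBP on 5 of 6. The 9 markers above the lowest 25% on all 6 arrays were AIF1, CD86, MARCO, CCR7, CD83, CD14, FCER1G, CCL2 and MRC1, and CD86, a costimulatory receptor, averaged 7.65 in ALI and 7.98 in SMC cells (adjusted p = 0.185). The linear signals of the 16 markers summed to 1977 to 2216 on the ALI and to 2843 to 3029 on the SMC arrays. AIF1 had by far the highest signal of the 16 and makes up most of these sums. The sums thus mostly repeat the difference of AIF1 and do not describe the list as a whole. Of 12 measured fibroblast markers, 1 passed with a lower level in ALI cells, POSTN, a secreted matrix protein, at -1.50 (adjusted p = 0.0485). This call was lost after quantile normalization (adjusted p = 0.0529) and without any ALI array or SMC replicate 2 (0.0845 to 0.18). DCN, LUM and FAP were in the lowest 25% on all 6 arrays, while POSTN, PDGFRB, COL1A2, FBLN1, COL6A2, THY1, COL3A1 and COL6A3 were above it on all 6. PDGFRB, a receptor of platelet-derived growth factor, averaged 7.55 in ALI and 8.05 in SMC cells (adjusted p = 0.441), and COL1A2, a collagen chain, averaged 7.56 in ALI and 7.33 in SMC cells (adjusted p = 0.559). The sum of the fibroblast list was 924 to 1066 in ALI and 1081 to 1624 in SMC cells. This sum leans on few genes, as POSTN averaged 7.01 in ALI and 8.51 in SMC cells, the highest SMC mean of the list. Of 13 measured epithelial markers, none passed the test (median -0.07, sums of 52368 to 54026 in ALI and 49662 to 57521 in SMC cells), with TJP1 in the lowest 25% on all 6 arrays, VIL1, the villin of microvilli, at -0.45 (adjusted p = 0.332) and CLDN7, a claudin of tight junctions, at -0.38 (adjusted p = 0.532). The part of other cell types in the ADAMDEC1 difference was not tested.

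**Figure D5:**
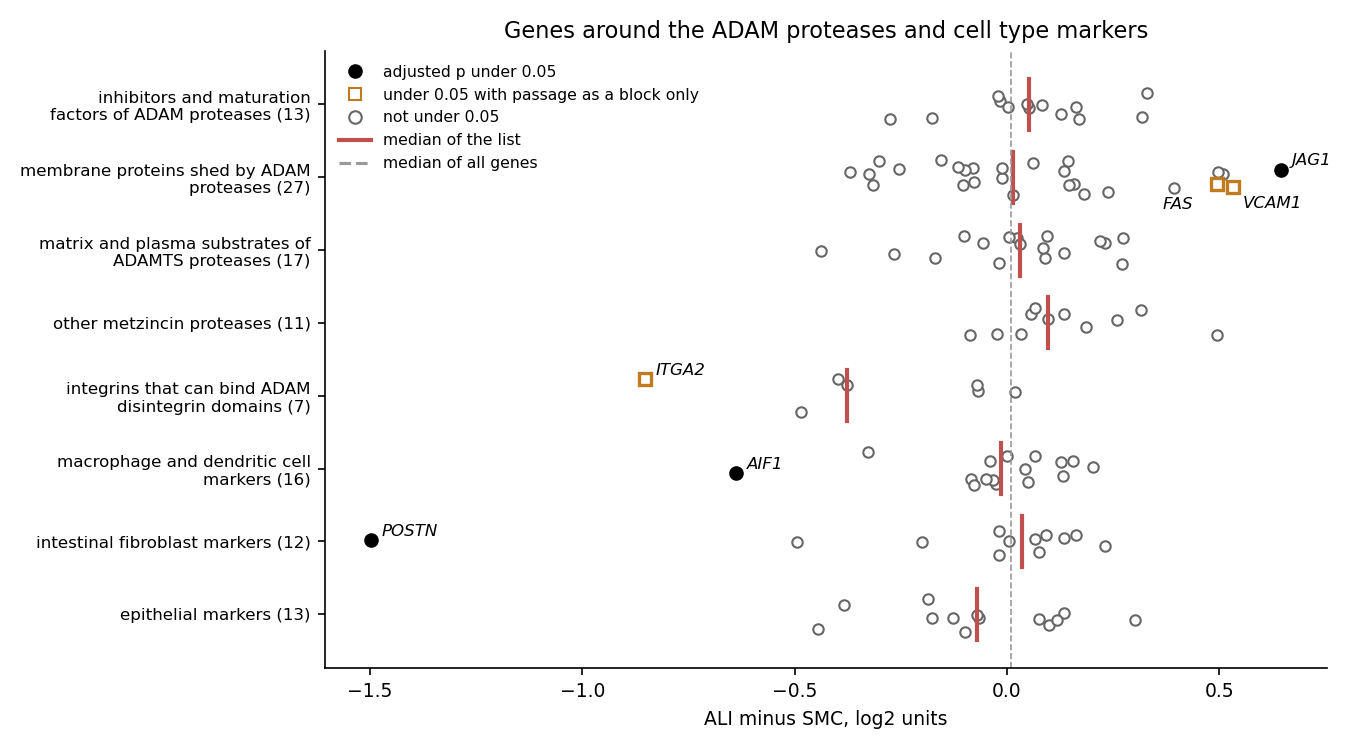
Difference ALI minus SMC in log2 units (x axis) for the measured genes of 8 lists (y axis, with the number of genes). Filled points passed limma's test, squares passed with the passage as a block only, red bars are list medians and the dashed line is the median of all genes. JAG1 at 0.65, AIF1 at -0.64 and POSTN at -1.50 are the genes that passed without the block.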

How the data were processed

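The authors deposited 1 table of log2 values for 24123 probe sets, with a column for every array. It names no normalization. The methods state GC-RMA (R package gcrma) after Affymetrix GCOS, and the submitters' processing notes name GCOS 1.1.1. No detection calls were used, so values below an array's 25% quantile were treated as possible background. The values were not scaled again. Without the 124 Affymetrix controls, 23999 probe sets entered the fits (limma 3.58.1, lmFit and eBayes, R 4.3.3), and Benjamini-Hochberg adjustment ran over all of them. Arrays have no read depth, so precision rests on the number of arrays.

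Gene symbols came from the platform annotation (10069 probe sets had 1 symbol, 198 several and 13732 none). The probe set with the highest mean stood for a gene. Every passage had 1 ALI and 1 SMC array. Across probe sets, the deviations of these pairs from the group means correlated at 0.34, 0.14 and 0.451 for P109, P111 and P113, and the arrays were taken as paired, although ALI replicate 2 correlated more with SMC replicate 1 (0.219). The main fit has no block, as the methods name none.

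The genes and lists were chosen with earlier results of these data known. Named are the ADAM and ADAMTS genes, the 5 genes nearest to ADAMDEC1, and from every list at most 6 called genes or, without a call, the 2 farthest from 0. CDH1, HBEGF, TGFA, TIMP1, MMP7, COL5A2, COL3A1, the genes called with the block only and the cell type markers given by their level were named after their values had been seen. The fits were tested on simulated data.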

Additional observations from a re-analysis of the deposited data

How the results depend on the processing

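The ADAMDEC1 difference of 2.73 log2 units was 2.70 after quantile normalization, 2.21 to 3.04 without 1 array and 2.21 to 3.10 without 1 passage. No ADAM or ADAMTS gene, by the probe set that stands for it, changed direction under the alternatives run. No ADAM or ADAMTS probe set was called under any setting other than the passage as a block, which called 3, and 1 to 2 without 1 passage (a setting chosen after seeing the data). With the block the ADAM28 difference of 0.96 passed, and without P109, P111 or P113 it was 1.01, 0.85 and 1.03 and passed each time. At P111 the ADAMTS1 difference of 0.24 was 0.15 after quantile normalization.

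The block called 3 of the shed membrane proteins and 1 of the integrins, and the intensity trend called 2 of the shed proteins. The methods' t-test, as run here, called 0 shed proteins, 0 macrophage markers and 0 fibroblast markers, as it called 0% of all probe sets. Quantile normalization called 0 fibroblast markers. Without 1 array, the shed proteins, the macrophage and dendritic cell markers, the fibroblast markers and the other metzincins had 0 to 1 calls each. With the block and without 1 passage, the shed proteins, the integrins and the fibroblast markers had 0 to 2 calls each, and the metzincins and the macrophage markers 0 to 1. The causes of these changes were not tested. The block changed no other call named here. With 3 arrays a group the intervals are wide, as for ADAM28 (0.37 to 1.55), and probe sets in the lowest 25% of the arrays give no sure level.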
